A study of Homo sapiens with 8 samples.

Results

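The replication-dependent histone genes are the families named H1-1 to H1-5, H2AC, H2BC, H3C and H4C in current human nomenclature, known earlier by symbols beginning with HIST. Members were chosen by symbol alone, and 49 of the 15597 genes listed matched: 5 H1 genes, 12 H2A genes, 15 H2B genes, 8 H3 genes and 9 H4 genes. In the RefSeq annotation 44 of them lie on chromosome 6 and 5 on chromosome 1. RNA came from the SUDHL-4 cell line, an established germinal-centre lymphoma line (DLBCL, diffuse large B-cell lymphoma), so every group shares the same tumour background. Control cells, labelled with the WT genotype, received the solvent DMSO or elesclomol (ES), a copper-binding compound, at 5 nM for 48 h. Cells overexpressing FDX1 (FDX1-OE), the mitochondrial ferredoxin known to bind elesclomol, received the same. Each of the 4 groups had 2 libraries. The labels name neither the vector and promoter of the overexpression nor whether it is 1 clone, and nothing says that the replicates were separate cultures, so the p-values cover the spread among these libraries, which may be technical.

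As background, these genes supply the histones that package newly copied DNA, and their transcripts rise as cells enter S phase. H2A, H2B, H3 and H4 form the nucleosome core, and H1 is the linker histone that binds where DNA enters and leaves it. Their usual mRNA carries no poly(A) tail: it ends just after a short stem-loop that the protein SLBP binds. Some of these genes can also give longer transcripts that run past the stem-loop and are polyadenylated. The labels give total RNA and a VAHTS Universal V6 library kit, and they do not say whether poly(A) RNA was selected.

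The stem-loop defines how these mRNAs end, and its letters are shown for that reason. Transcripts of the GENCODE v29 annotation (GRCh38) were searched on their own strand for the conserved letters of the histone stem-loop (a fixed GG, TT, T, A and CC, with any base between), with at least 5 of the 6 stem positions able to pair. Such letters were found in 20 of the 48 members with a transcript model, in 5 forms, written with the stem in capitals. The first was in 10 members, among them H2AC6, H2AC8, H2BC8, H2BC21 and H3C10, the second in H2BC4, H2BC5, H2BC7 and H3C8, the third in H2AC11, the fourth in 4 H4 genes and the fifth in H4C9.
form in 10 H2A, H2B and H3 members: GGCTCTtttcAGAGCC
form in 4 H2B and H3 members: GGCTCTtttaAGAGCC
form in H2AC11: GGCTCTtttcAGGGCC
form in 4 H4 members: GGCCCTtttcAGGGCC
form in H4C9: GGCCCTttttAGGGCC
The 28 members without such letters include models that stop before the end of the mRNA, so their lack of a match describes the model. Of all 19684 protein-coding genes, 6.43% held these letters in a transcript, paired or not. In 13 members an annotated transcript ran on for more than 200 bases after the stem-loop. That extension was 1761 bases in H2AC11, 1729 in H2BC21, 1518 in H3C8 and 769 in H3C10, and the longest in H2AC6 was 1128. The gene lengths behind the deposited values were 493, 2224, 496, 486 and 519 bases in that order. Of these only the length of H2BC21 exceeds its extension.

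Promoters are shown for 6 members whose levels changed with ES, as 120 bases ending just before the RefSeq start site (GRCh38.p14, written along the gene's own strand). Capitals mark CCAAT, the octamer ATTTGCAT that POU-family factors bind, and TATAAA, on either strand.
H2BC12, chr6:27146859-27146978, minus strand: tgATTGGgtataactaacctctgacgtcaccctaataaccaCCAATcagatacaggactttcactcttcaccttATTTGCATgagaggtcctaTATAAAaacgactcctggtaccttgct
H2BC11, chr6:27132796-27132915, minus strand: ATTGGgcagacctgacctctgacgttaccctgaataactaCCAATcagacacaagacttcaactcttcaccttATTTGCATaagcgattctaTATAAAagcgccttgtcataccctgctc
H2AC11, chr6:27132923-27133042, plus strand: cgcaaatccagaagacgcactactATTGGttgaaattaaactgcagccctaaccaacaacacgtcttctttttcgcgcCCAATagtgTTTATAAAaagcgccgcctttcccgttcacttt
H2BC4, chr6:26123927-26124046, minus strand: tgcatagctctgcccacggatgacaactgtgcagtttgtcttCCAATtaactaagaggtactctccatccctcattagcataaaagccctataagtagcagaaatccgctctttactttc
H2AC6, chr6:26124052-26124171, plus strand: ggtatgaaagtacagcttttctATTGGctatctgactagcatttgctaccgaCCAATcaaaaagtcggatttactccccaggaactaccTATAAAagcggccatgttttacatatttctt
H3C10, chr6:27809931-27810050, plus strand: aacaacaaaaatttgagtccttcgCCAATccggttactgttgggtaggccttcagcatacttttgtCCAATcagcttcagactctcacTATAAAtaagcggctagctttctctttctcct
H2BC11 and H2AC11 are neighbours read in opposite directions from start sites 248 bases apart, as are H2BC4 and H2AC6 at 246 bases. In all, 9 such divergent pairs with starts within 400 bases joined 18 members, and 8 of them paired an H2A with an H2B gene. In H2BC12 the octamer began 46 bases and TATAAA 27 bases before the start, and in H2BC11 they began 47 and 28 bases before it.

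RefSeq promoters were found for 45 members. In the 250 bases before the start, on either strand, ATTTGCAT was present in 1.66% of all 27305 promoters, in 12 of 15 H2B promoters and in 9 of 11 H2A promoters. It was present in 1 of 6 H3 promoters and in none of the 5 H1 and 8 H4 promoters. TATAAA was present in 11.1% of all promoters and in 32 of 45 members, and CCAAT in 33.0% and 39 of 45. AAACACA, the H1 box, was present in 4.95% of all promoters, in 5 of 5 H1 promoters and in no other member. A divergent pair shares most of this window, so 1 octamer or 1 TATAAA can count for both genes. For example, the octamer did so for H2BC11 and H2AC11, for H2BC4 and H2AC6, and for H2BC8 and H2AC8. TATAAA did so for H2BC4 and H2AC6, and for H2BC8 and H2AC8. These matches describe the letters and not binding.

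Depth and the targeted gene were as follows over the 8 libraries. Reads recovered from the deposited values came to between 33435438 and 35883528 per library. FDX1 stood at 25.6 and 22.2 FPKM (reads scaled to gene length and library total) in control DMSO libraries and 21.3 and 21.4 in control ES libraries. It stood at 72.4 and 69.9 in FDX1-OE DMSO libraries and 82.5 and 84.8 in FDX1-OE ES libraries, so every FDX1-OE library lay above every control library. B-cell markers summed to between 1442 and 1793 FPKM, and all 8 of them were tested. Epithelial and stromal markers summed to at most 2.53 FPKM and T and NK cell markers to at most 8.57. Myeloid markers, of which 4 of 6 stayed under 1 FPKM everywhere and CD68 and FCER1G did not, summed to between 4.03 and 8.18 in DMSO, 16.5 and 12.3 in control ES, and 36.7 and 39.7 in FDX1-OE ES. Low values shifted across the whole series too: genes at 0 numbered 2601 to 2720 in DMSO libraries, 2188 and 2303 in control ES libraries and 1593 and 1558 in FDX1-OE ES libraries. The 25th percentile of all genes was 0.033 to 0.0355 FPKM in DMSO, 0.0655 and 0.0607 in control ES, and 0.0939 and 0.0978 in FDX1-OE ES. These shifts went the same way as the histone levels described below, and their part in those levels was not tested.

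Levels of the histone genes were low in every group. Over the 8 libraries 43 of the 49 members had a mean under 1 FPKM, and 29 never reached 1 FPKM in any library. The 392 single values included 62 at 0 and only 58 of at least 1 FPKM, and 34.2% rested on fewer than 3 reads. For a gene of 500 bases 3 reads were worth 0.167 to 0.179 FPKM, which is the floor at this depth for counting error alone. All members together took 5872 reads over the 8 libraries, of which 1968 belonged to H2BC12. For comparison, H2AX and H2AZ1, listed here as replication-independent variants, had group means of 106 and 771 FPKM in control DMSO libraries. Whether poly(A) RNA was selected is not stated, and its part in this gap was not tested.

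**Figure D1:**
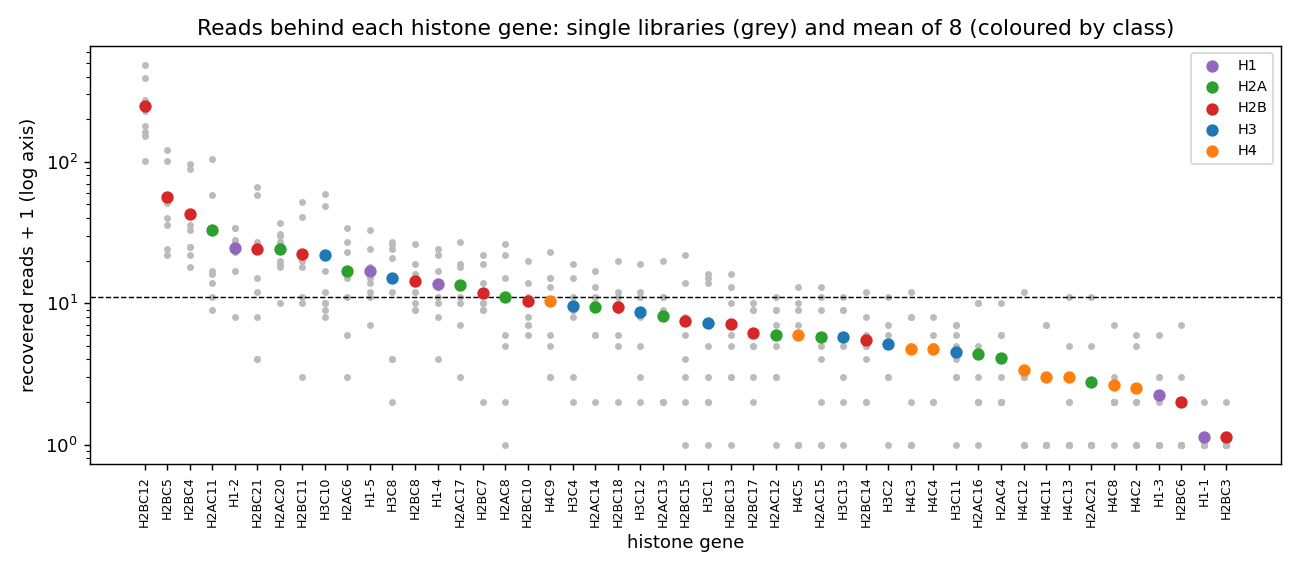
Reads behind each of the 49 histone genes (log axis, reads + 1), in single libraries (grey points) and as the mean of the 8 libraries (points coloured by class), in order of the mean. The dashed line marks 10 reads: 17 genes have a mean of at least 10 reads and 32 lie under it, with H2BC12 far above the rest.

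H2BC12 was the member with the highest level, followed by H2AC11, H2AC20, H2BC11, H3C10 and H2BC5, whose means over the 8 libraries were 1.86, 1.34, 1.28, 1.23 and 1.20 FPKM. These 5 are not separated by their spread, since single libraries of H2AC11 ran from 0.485 to 5.92 FPKM and those of H2AC20 from 0.544 to 2.10. The 2 highest H1 genes were H1-2 at a mean of 0.934 and H1-5 at 0.573 FPKM. The 2 highest H4 genes were H4C9 at 0.682 and H4C5 at 0.350 FPKM, and no H4 gene reached a mean of 1 FPKM. Detection was in all 8 libraries for 27 members and in a single library for H1-1 and H2BC3. The 4 members at 0 in all DMSO libraries were H1-1, H1-3, H2BC3 and H2BC6, named after their values were seen.

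Of the 49 members, 15 had at least 1 FPKM in at least 2 libraries and were tested, and 34 did not. Those tested were H1-2, H2AC6, H2AC8, H2AC11, H2AC17, H2AC20, H2BC4, H2BC5, H2BC7, H2BC8, H2BC11, H2BC12, H3C8, H3C10 and H4C9. Only 3 of them (H2AC20, H2BC12 and H4C9) would pass on the DMSO libraries alone, and 7 passed only with an FDX1-OE ES library. Those 7 were H2AC6, H2AC8, H2AC11, H2AC17, H2BC4, H2BC8 and H3C10. The filter therefore favours members that are high with ES, and counts among the tested members are read against that. The 34 members under the filter had group means from 0 to 0.850 FPKM in control DMSO, 0.551 in FDX1-OE DMSO, 0.788 in control ES and 0.838 in FDX1-OE ES. Their median group means were 0.171, 0.152, 0.263 and 0.249 FPKM in that order.

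**Figure D2:**
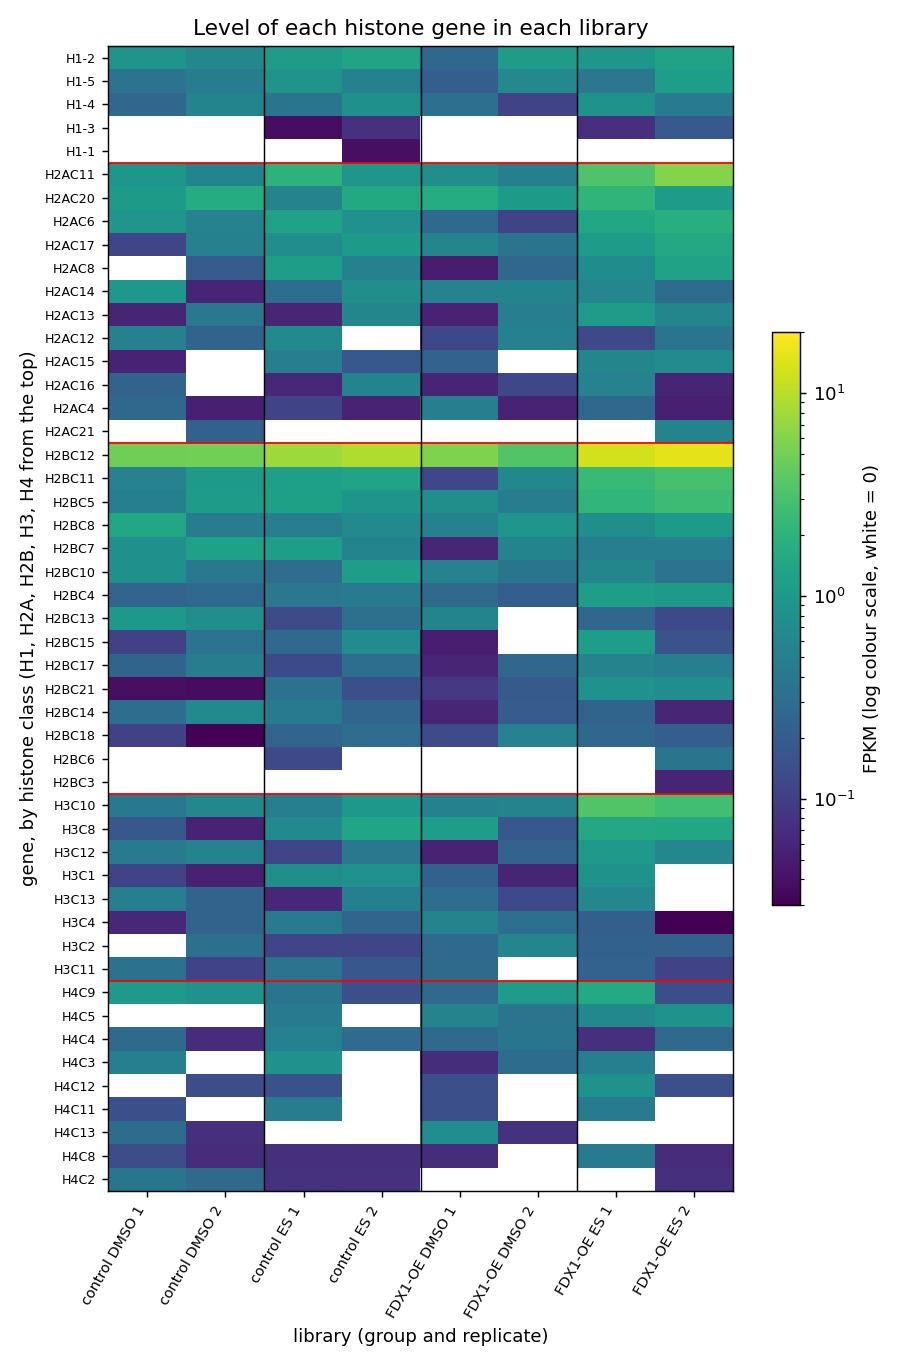
Level of each of the 49 histone genes (rows, by class from H1 at the top to H4) in each of the 8 libraries (columns), in FPKM on a log colour scale with 0 in white. H2BC12 is bright in every library, and H2AC11, H2BC11, H2BC5 and H3C10 are brightest in the FDX1-OE ES libraries.

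Summed over all 49 members, the level was 22.3 and 21.6 FPKM in control DMSO libraries, 20.2 and 17.8 in FDX1-OE DMSO libraries, 29.7 and 31.0 in control ES libraries and 50.2 and 50.1 in FDX1-OE ES libraries. The groups did not overlap: FDX1-OE ES was the highest and control ES the next. With ES the mean sum went from 22.0 ± 0.547 to 30.4 ± 0.954 FPKM (SD, n = 2) in control cells, a ratio of 1.38. In FDX1-OE cells it went from 19.0 ± 1.72 to 50.2 ± 0.0952 FPKM (SD, n = 2), a ratio of 2.64. Without H2BC12 the ratios were 1.29 and 2.50. The sums are a description with no test, and in bulk RNA more cells in S phase and more histone RNA per cell cannot be told apart. The labels do not say whether poly(A) RNA was selected, so the sums may leave out transcripts without a poly(A) tail.

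The 5 classes differed in how far their sums moved. Summed H2A FPKM was 5.09 and 4.48 in control DMSO, 4.81 and 4.02 in FDX1-OE DMSO, 7.34 and 6.92 in control ES and 11.9 and 14.2 in FDX1-OE ES. Summed H2B FPKM was 10.96 and 11.8 in control DMSO, 8.96 and 7.74 in FDX1-OE DMSO, 14.1 and 16.2 in control ES and 23.6 and 26.1 in FDX1-OE ES. In both of these core classes each ES group lay above its DMSO group, with ratios of 1.49 and 1.33 in control cells and 2.95 and 2.98 in FDX1-OE cells. H2B rested largely on H2BC12: without that gene its ratio in control cells was 1.05, with sums of 6.10 and 6.71 in DMSO and 6.42 and 7.08 in ES, which overlap. In FDX1-OE cells the H2B ratio without H2BC12 was 2.84.

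Summed H3 FPKM was 2.05 and 2.20 in control DMSO, 3.36 and 2.06 in FDX1-OE DMSO, 3.02 and 4.60 in control ES and 8.08 and 5.20 in FDX1-OE ES. The ES libraries lay above the DMSO libraries of the same cells, with ratios of 1.79 and 2.45. Summed H1 FPKM was 1.48 and 1.63 in control DMSO, 0.810 and 1.82 in FDX1-OE DMSO, 2.38 and 2.75 in control ES and 2.26 and 3.03 in FDX1-OE ES. The H1 ratios were 1.65 and 2.01, and the 2 ES groups overlapped each other. Summed H4 FPKM was 2.76 and 1.48 in control DMSO, 2.28 and 2.16 in FDX1-OE DMSO, 2.90 and 0.589 in control ES and 4.47 and 1.54 in FDX1-OE ES. H4 was the class with no separation between any groups: its libraries overlapped in all 4, on 8 to 62 reads per library.

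**Figure D3:**
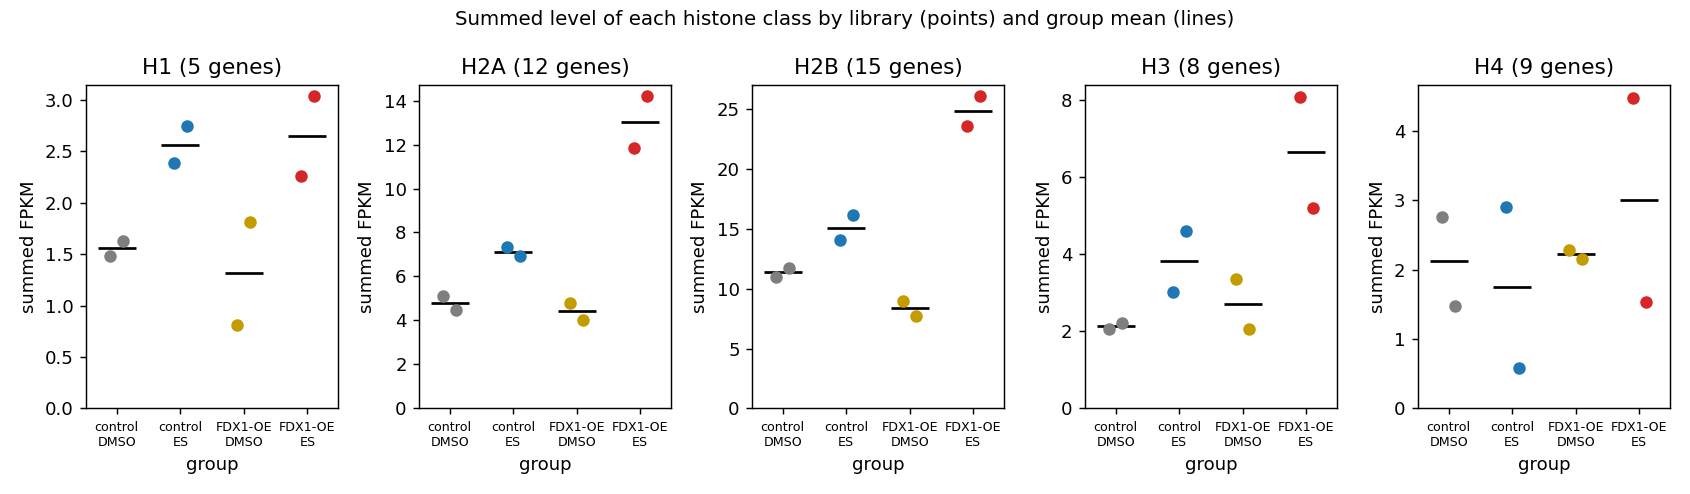
Summed FPKM of the members of each histone class in each library (points) with the mean of the 2 libraries of a group (line), 1 panel per class with its own axis from 0. H2A and H2B reach 11.9 to 14.2 and 23.6 to 26.1 FPKM in FDX1-OE ES libraries, above all other libraries, while the H4 points of the 4 groups overlap.

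The first comparison asked how ES changed the histone genes of control cells. H2AC8, H2AC17, H2BC12 and H3C8 rose, so 4 of the 49 members, all among the 15 tested, were called higher and 0 lower (limma on log2(FPKM + 1), adjusted p below 0.05 over 9805 genes). Changes below are on this log2(FPKM + 1) scale, which understates those of low genes. Of all genes tested 25.5% were called higher and 12.9% lower. These shares are over tested genes, and 34 of the 49 members were not tested, so here and below they are set beside the count of the 15 tested too. Since 12 of those 15 passed the filter only with an ES library, the shares do not place the members above or below the background. By class the calls were 2 of 12 H2A, 1 of 15 H2B, 1 of 8 H3 and none of the 5 H1 and 9 H4 genes.

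H2BC12, an H2B gene, had 4.87 and 5.06 FPKM in control DMSO and 7.64 and 9.10 in control ES. These are 150 and 161 reads against 227 and 274, the best covered change among the members, and the groups did not overlap. Its log2 change was 0.65 ± 0.16 (SE, adjusted p = 0.0111, limma).

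H3C8, an H3 gene, had 0.174 and 0.0562 FPKM in DMSO and 0.662 and 1.37 in ES. Its DMSO values rest on 3 and 1 reads. Its log2 change was 0.83 ± 0.24 (SE, adjusted p = 0.0184, limma). H2AC8, an H2A gene, had 0 and 0.198 FPKM in DMSO, which are 0 and 4 reads, and 1.11 and 0.523 in ES, which are 21 and 10 reads. H2AC8 changed by 0.71 ± 0.18 (SE, adjusted p = 0.0111, limma). H2AC17, another H2A gene, had 0.118 and 0.515 FPKM in DMSO and 0.735 and 1.03 in ES, a log2 change of 0.53 ± 0.16 (SE, adjusted p = 0.0235, limma). In these 3 genes no ES library lay below a DMSO library, on at most 23 reads in any control library. Of the 100-base windows of the H2AC17 transcript model, 84.0% also occur in another gene, so reads of H2AC17 cannot be placed with certainty. For H2BC12 that share was 28.4%. The models of H2AC17 and H2BC12 have 393 and 381 bases, and the lengths behind their deposited values are 487 and 887. The shares therefore need not describe the whole length that was counted.

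The calls of control cells leaned on single libraries and on the filter. Without control DMSO replicate 1 none of the 4 was called, without control ES replicate 2 only H2AC8 of the 4 was (and H2AC11 newly), and with no filter none of the 4 was.

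Over all 49 members, tested or not, 15 had both control ES libraries above both control DMSO libraries and 5 had both below, where 37.9% and 18.7% of all genes listed did. The 5 lower members were H2BC13, H3C12, H4C2, H4C9 and H4C13, named after their values were seen, and 3 of them are H4 genes. H4C9, the only H4 gene tested, had 1.02 and 0.842 FPKM in DMSO and 0.376 and 0.148 in ES. Its log2 change was -0.62 ± 0.32 (SE, adjusted p = 0.145, limma), which did not pass. H4C13 had 4 and 1 reads in control DMSO and 0 in both control ES libraries, under the floor in all but 1 of them.

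The second comparison asked the same of FDX1-OE cells. There 10 of the 49 members, of 15 tested, rose and 0 fell, where 37% of all genes tested were called higher and 19.2% lower. The calls were 4 of 12 H2A genes (H2AC6, H2AC8, H2AC11, H2AC17), 4 of 15 H2B genes (H2BC4, H2BC5, H2BC11, H2BC12) and 2 of 8 H3 genes (H3C8, H3C10). No H1 or H4 gene was called. Of the called members, H2AC6, H2AC8, H2AC11, H2AC17, H2BC4 and H3C10 passed the filter only with an FDX1-OE ES library. That is the group in which they were called higher, so the filter favours them. The shares therefore do not place the members above or below the background.

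H2BC12 had 5.73 and 3.41 FPKM in FDX1-OE DMSO and 12.7 and 15.4 in FDX1-OE ES, which are 179 and 101 reads against 393 and 483. Its mean ratio was 3.08 and its log2 change 1.46 ± 0.16 (SE, adjusted p = 4.04e-05, limma). H2AC11 had 0.749 and 0.485 FPKM in DMSO and 3.32 and 5.92 in ES, which are 13 and 8 reads against 57 and 103. Both genes were several times higher with ES, and no library of 1 group reached those of the other. H2AC11 changed by 1.76 ± 0.24 (SE, adjusted p = 1.24e-04, limma), the highest log2 change among the tested members. Its divergent neighbour H2BC11, whose promoter stands above beside it, had 0.118 and 0.623 FPKM in DMSO and 2.40 and 3.01 in ES (2 and 10 reads against 40 and 51). H2BC11 changed by 1.45 ± 0.17 (SE, adjusted p = 6.06e-05, limma), so both neighbours of this pair rose.

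H3C10, an H3 gene, had 0.526 and 0.554 FPKM in DMSO and 3.43 and 2.80 in ES, on 9 and 9 reads against 58 and 48. H3C10 changed by 1.41 ± 0.14 (SE, adjusted p = 1.64e-05, limma). The divergent pair of H2BC4 and H2AC6 rose as well. H2BC4 had 0.281 and 0.210 FPKM in DMSO and 1.13 and 1.03 in ES, and since its length is 2426 bases these low values are 24 and 17 reads against 95 and 88. Its log2 change was 0.74 ± 0.09 (SE, adjusted p = 9.45e-05, limma). H2AC6 had 0.274 and 0.115 FPKM in DMSO, which are 5 and 2 reads, and 1.44 and 1.80 in ES, which are 26 and 33 reads. H2AC6 changed by 1.13 ± 0.14 (SE, adjusted p = 8.63e-05, limma). H2BC5 had 0.753 and 0.476 FPKM in DMSO and 2.18 and 2.58 in ES, on 35 and 21 reads against 100 and 120. H2BC5 changed by 1.07 ± 0.15 (SE, adjusted p = 1.99e-04, limma).

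The other 3 called members were H2AC8, H2AC17 and H3C8. H2AC8 had 0.0504 and 0.266 FPKM in DMSO and 0.715 and 1.26 in ES. H2AC17 had 0.583 and 0.368 FPKM in DMSO and 1.06 and 1.51 in ES. Their log2 changes were 0.77 ± 0.18 (SE, adjusted p = 0.00431, limma) and 0.63 ± 0.16 (SE, adjusted p = 0.00634, limma). H3C8 had 1.14 and 0.181 FPKM in DMSO and 1.51 and 1.43 in ES, so its DMSO libraries differed from each other by more than its ES libraries from the nearer of them. H3C8 changed by 0.63 ± 0.24 (SE, adjusted p = 0.0411, limma), a call lost under 7 of 11 alternatives. Without FDX1-OE ES replicate 2, H2AC6, H2AC11, H2BC5, H2BC11 and H2BC12 were still called and H4C9 newly so, H2AC17 and H3C8 were not, and H2AC8, H2BC4 and H3C10 no longer passed the filter.

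The 5 tested members that were not called were H1-2, H2AC20, H2BC7, H2BC8 and H4C9. H1-2, the H1 gene with the highest level, had 0.866 and 0.610 FPKM in control DMSO, 0.272 and 1.06 in FDX1-OE DMSO, 1.10 and 1.33 in control ES and 0.944 and 1.28 in FDX1-OE ES. H1-2 was higher in both control ES libraries than in DMSO but overlapped in FDX1-OE cells, with log2 changes of 0.35 ± 0.19 and 0.38 ± 0.19 (SE, adjusted p = 0.165 and 0.112, limma). H2AC20, the second highest H2A gene, had 1.05 and 1.69 FPKM in control DMSO, 0.544 and 1.55 in control ES, 1.67 and 1.03 in FDX1-OE DMSO and 2.10 and 1.09 in FDX1-OE ES. These values overlapped throughout, and its log2 changes were -0.24 ± 0.25 in control and 0.13 ± 0.25 in FDX1-OE cells. H2BC7 and H2BC8 had log2 changes of 0.20 ± 0.19 and 0.15 ± 0.21 in FDX1-OE cells, on at most 25 reads in any library. H4C9 had 0.286 and 1.05 FPKM in FDX1-OE DMSO and 1.59 and 0.143 in FDX1-OE ES, a spread within groups as wide as that between them. H2AC20 is read away from H2BC21, with start sites 236 bases apart. H2BC8 is read away from H2AC8 at 233 bases. H2AC8 was called higher in both kinds of cells, while H2BC8 was called in neither. In control cells H2BC8 changed by -0.27 ± 0.21 (SE). Divergent neighbours were therefore not all called together.

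**Figure D4:**
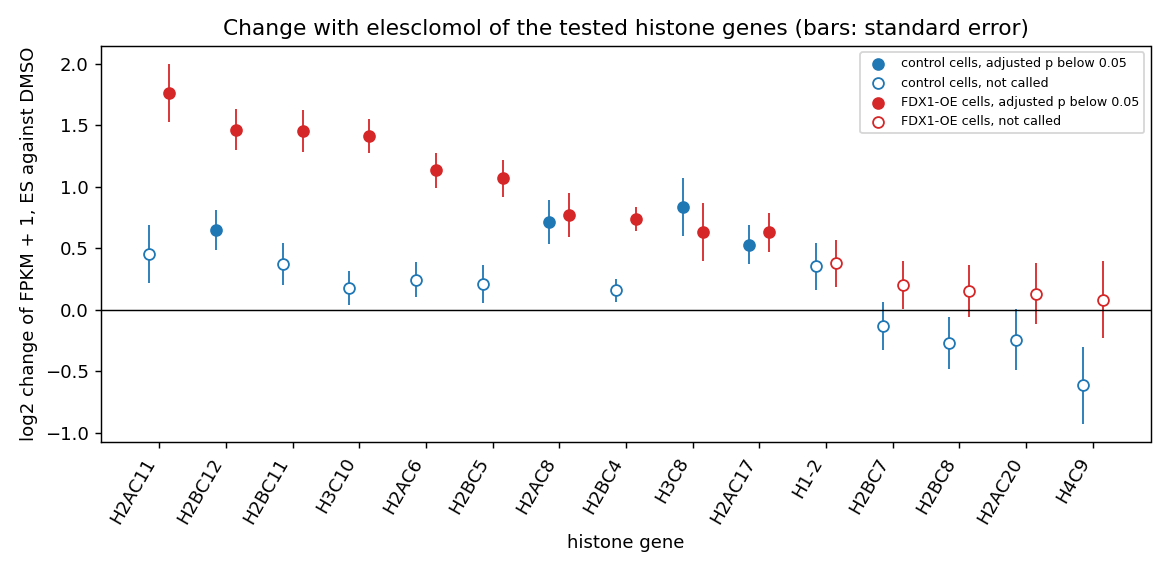
Change with ES of the 15 tested histone genes on the log2(FPKM + 1) scale, in control cells (blue) and FDX1-OE cells (red), with bars of 1 standard error. Filled points passed an adjusted p of 0.05: 4 genes in control cells and 10 in FDX1-OE cells, all above 0.

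A filter on the mean over all 8 libraries was added after the data were seen. It does not look at the groups, but high ES libraries raise the mean, so it too favours members that are high with ES. Its counts are read against that. It kept 17 members with a mean of at least 10 reads and tested their recovered reads with voom (limma). In control cells 4 were higher and 0 lower, where 25.5% and 12.3% of 11445 genes were. In FDX1-OE cells 9 were higher and 0 lower, where 38.5% and 17.3% of genes were. In control cells H2AC17 was not called by this test, and in FDX1-OE cells H2AC17 and H3C8 were not. It added H2BC21, a long H2B gene of 2224 bases that stayed under 1 FPKM everywhere. H2BC21 had 3 and 3 reads in control DMSO, 26 and 11 in control ES, 7 and 14 in FDX1-OE DMSO and 65 and 57 in FDX1-OE ES. The ES libraries lay above those of DMSO in FDX1-OE cells and in control cells. The log2 change of H2BC21 was 2.38 ± 0.83 in control cells (SE, adjusted p = 0.0298, voom) and 2.54 ± 0.57 in FDX1-OE cells (SE, adjusted p = 8.88e-04, voom). The 3 H1 genes it tested, H1-2, H1-4 and H1-5, were not called in either.

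Over all 49 members 19 had both FDX1-OE ES libraries above both FDX1-OE DMSO libraries and 4 had both below, where 45.9% and 20% of all genes listed did. The lower members were H3C2, H3C4, H4C4 and H4C13, named after their values were seen, and H4C13 is the gene also lower in control cells. H4C13 had 10 and 1 reads in FDX1-OE DMSO and 0 in both FDX1-OE ES libraries. By class, members above in FDX1-OE cells were 2 of 5 H1, 6 of 12 H2A, 7 of 15 H2B, 3 of 8 H3 and 1 of 9 H4 genes. The H4 gene was H4C5, the second highest H4 gene, with 0.551 and 0.363 FPKM in DMSO and 0.628 and 0.826 in ES, on 5 to 12 reads.

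Length bears on which members have reads. The 6 members of at least 800 bases were H2BC4, H2BC5, H2BC12, H2BC18, H2BC21 and H3C4, and they took 3066 of the 5872 reads. Their summed FPKM had ES over DMSO ratios of 1.71 in control and 2.95 in FDX1-OE cells, and that of the 43 shorter members 1.25 and 2.48. H2BC12 alone took 1968 of those 3066 reads, and its own ratios were 1.69 and 3.08. The ratios of the long members therefore rest largely on that gene. Among the 10 members called in FDX1-OE cells, 7 had ATTTGCAT and 9 had TATAAA in the promoter window. The TATAAA of H2BC4 and H2AC8 began 220 and 206 bases before the start. Each is the one that lies 31 or 32 bases before the divergent neighbour, H2AC6 or H2BC8. Octamers were shared too: H2BC4 and H2AC6 have the same one, as do H2BC11 and H2AC11. The octamer of H2AC8, 192 bases before its start, is the one 48 bases before H2BC8. Among the 5 tested and not called, 3 had ATTTGCAT and 2 had TATAAA. These counts are too small to set the members apart and carry no test.

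The third comparison asked whether FDX1 overexpression alone changed the histone genes. In DMSO 0 members were called higher and 0 lower by limma and also by voom, where 0.428% of all genes tested were called higher and 0.0816% lower. By voom with the mean of at least 10 reads those shares were 0.577% and 0.0874%. Two-sided unadjusted p fell below 0.05 for 2 members, H2AC6 and H2BC7. H2AC6 had 0.888 and 0.537 FPKM in control DMSO against 0.274 and 0.115 in FDX1-OE DMSO, a log2 change of -0.52 ± 0.14 (SE, adjusted p = 0.273, limma). H2BC7 had 0.791 and 1.24 FPKM against 0.0600 and 0.569, a change of -0.63 ± 0.19 (SE, adjusted p = 0.366, limma). In both genes the control libraries lay above the FDX1-OE libraries. The mean sum over all members had a ratio of 0.866, and H2B without H2BC12 a ratio of 0.591, with 6.10 and 6.71 FPKM in control and 3.23 and 4.34 in FDX1-OE libraries. Of the classes, H3 had the highest ratio, 1.28, with overlapping libraries.

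The fourth comparison set the 2 kinds of cells side by side under ES. H2AC11, H2BC4, H2BC5, H2BC11, H2BC12 and H3C10 were higher in FDX1-OE cells, which makes 6 of 49 members (15 tested) higher and 0 lower where 13.6% and 7.78% of all genes tested were. H3C10 had 0.491 and 0.970 FPKM in control ES against the 3.43 and 2.80 given above, a difference of 1.26 ± 0.14 on the log2 scale (SE, adjusted p = 2.78e-04, limma). H2AC11 had 2.00 and 0.897 FPKM in control ES, a difference of 1.20 ± 0.24 (SE, adjusted p = 0.00625, limma). Neither gene overlapped between the groups. H2BC12 differed by 0.69 ± 0.16 (SE, adjusted p = 0.0154, limma). H2BC5 had 1.20 and 0.871 FPKM in control ES and differed by 0.73 ± 0.15 (SE, adjusted p = 0.00846, limma). H2BC11 had 1.18 and 1.35 FPKM and H2BC4 had 0.394 and 0.425 FPKM in control ES. Their differences were 0.71 ± 0.17 and 0.56 ± 0.09 (SE, adjusted p = 0.0174 and 0.00305, limma). Without control ES replicate 2, H2BC4, H2BC12 and H3C10 were called. Without FDX1-OE ES replicate 2, only H2AC11 of the 6 was called and H4C9 newly so, with H2BC4 and H3C10 under the filter. With voom and the mean of at least 10 reads 6 of 17 were higher and 0 lower (15.5% and 7.89% of genes), with H2BC21 in and H2BC11 out. This comparison shares its libraries with the ES comparisons above, so the same high values enter both. H2AC11, H2BC4 and H3C10 passed the filter only with an FDX1-OE ES library. That group is the higher one here, so the filter favours them, and the shares do not place the members above or below the background.

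The fifth comparison, the interaction, tested whether the ES response of FDX1-OE cells differed from that of control cells. It was larger in FDX1-OE cells for H2AC6, H2BC4, H2BC11 and H3C10, so 4 of 49 members (15 tested) were called higher and 0 lower where 3.25% and 1.05% of all genes tested were. H2AC6, H2BC4 and H3C10 passed the filter only with an FDX1-OE ES library, the group whose high values enter this term. The filter therefore favours their calls. H3C10 had the clearest difference, 1.24 ± 0.20 on the log2 scale (SE, adjusted p = 0.00914, limma): its mean FPKM ratio with ES was 1.40 in control and 5.77 in FDX1-OE cells. H2BC11 differed by 1.08 ± 0.25 (SE, adjusted p = 0.0398, limma) and H2BC4 by 0.58 ± 0.13 (SE, adjusted p = 0.0408, limma). H2AC6 differed by 0.89 ± 0.20 (SE, adjusted p = 0.0399, limma), and its FDX1-OE cells started from the lower DMSO values given above. H2AC11 at 1.31 ± 0.33 and H2BC12 at 0.82 ± 0.23 missed the threshold (SE, adjusted p = 0.0537 and 0.0721, limma). H2AC8, H2AC17 and H3C8, called in control cells, had interactions of 0.06 ± 0.26, 0.10 ± 0.22 and -0.20 ± 0.33. No member was called in the interaction by voom with the mean of at least 10 reads, where 3.41% of genes were called higher, 2.1% lower and 7 members had an unadjusted p below 0.05. Voom with the FPKM filter also called 0. Leaving out a single library gave 0 to 2 calls by limma, except 4 without control ES replicate 1; H3C10 was called in each of the 6 such fits that tested it, and without either FDX1-OE ES library it did not pass the filter.

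Genes that act on these histone genes and their mRNAs were counted from lists. Over all genes tested, 25.5% rose and 12.9% fell with ES in control cells and 37% and 19.2% in FDX1-OE cells, against which each list's counts are read. Of 27 tested factors of histone transcription and mRNA 3′ end processing, 3 rose and 3 fell with ES in control cells, and 3 rose and 5 fell in FDX1-OE cells, with median log2 changes of 0.04 and -0.04 beside 0.06 and 0.09 over all genes tested. SLBP, the stem-loop binding protein, had group means of 123 and 132 FPKM in control DMSO and ES, and 121 and 132 in FDX1-OE cells. SLBP did not pass in either, at log2 changes of 0.10 ± 0.05 and 0.12 ± 0.05 (SE, adjusted p = 0.129 and 0.0538, limma). NPAT, the histone gene coactivator that cyclin E-CDK2 phosphorylates, rose by 0.23 ± 0.06 in control cells (SE, adjusted p = 0.0158, limma), and its change in FDX1-OE cells was 0.13 ± 0.06 (SE, adjusted p = 0.116, limma). CASP8AP2, a partner of NPAT in histone gene transcription, rose by 0.21 ± 0.07 in FDX1-OE cells (SE, adjusted p = 0.0287, limma) and had a log2 change of 0.19 ± 0.07 in control cells (SE, adjusted p = 0.0559, limma). LSM10, a subunit of the U7 particle that processes histone mRNA ends, fell by 0.16 in FDX1-OE cells (SE 0.05, adjusted p = 0.0239, limma). LSM11, its partner, had log2 changes of -0.20 ± 0.09 and -0.19 ± 0.09 and did not pass.

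The members of that list with the widest change in FDX1-OE cells among those called were HINFP, a transcription factor of H4 genes, and DXO, a decapping enzyme. HINFP rose by 0.49 ± 0.07 (SE, adjusted p = 1.99e-04, limma) and DXO by 0.44 ± 0.07 (SE, adjusted p = 3.02e-04, limma). Of 31 tested genes of cyclin E, CDK2 and S phase entry, 20 rose and 0 fell with ES in control cells and 19 rose and 2 fell in FDX1-OE cells. The list holds inhibitors of S phase entry as well as its drivers, and the members named here other than CCNE2 were chosen after their values were seen. CDKN1A, which encodes the CDK inhibitor p21, rose by 0.55 ± 0.10 in control cells and 1.39 ± 0.10 in FDX1-OE cells (SE, adjusted p = 0.00204 and 2.54e-06, limma). CDKN1B, which encodes the CDK inhibitor p27, rose by 0.39 ± 0.09 in each (SE, adjusted p = 0.00648 and 0.00377, limma). RB1, which restrains E2F factors, rose by 0.24 ± 0.05 and 0.31 ± 0.05 (SE, adjusted p = 0.00574 and 7.07e-04, limma). The 2 that fell in FDX1-OE cells were MCM6, a subunit of the replicative helicase, and CCNA2, which encodes cyclin A2. CCNA2 fell by 0.37 (SE 0.06, adjusted p = 4.87e-04, limma), with a log2 change of 0.01 ± 0.06 in control cells. CCNE2, which encodes cyclin E2, went from a mean of 9.68 to 21.9 FPKM in control cells and from 8.38 to 23.4 in FDX1-OE cells. CCNE2 changed by 1.10 ± 0.07 and 1.38 ± 0.07 (SE, adjusted p = 4.69e-06 and 3.76e-07, limma).

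Of 9 tested genes listed as replication-independent histone variants, 4 rose and 1 fell in control cells and 5 rose and 1 fell in FDX1-OE cells. H2AX, the variant phosphorylated at DNA breaks, rose by 0.62 ± 0.08 in control cells and 1.04 ± 0.08 in FDX1-OE cells (SE, adjusted p = 3.63e-04 and 4.15e-06, limma). H1-10, a linker variant, rose by 0.31 ± 0.07 and 0.56 ± 0.07 (SE, adjusted p = 0.00437 and 6.06e-05, limma). Of 24 histone chaperones and deposition factors, 9 rose and 4 fell in control cells and 9 rose and 8 fell in FDX1-OE cells. ANP32E, the chaperone that removes H2A.Z, fell by 0.60 in FDX1-OE cells (SE 0.06, adjusted p = 1.14e-05, limma), and ASF1B, a chaperone of H3 and H4, rose by 0.54 ± 0.07 (SE, adjusted p = 7.49e-05, limma).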

How the data were processed

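RNA of 8 libraries of SUDHL-4 cells was sequenced, 2 in each of 4 groups given by the labels. The authors deposited 1 table of FPKM per library for 15597 genes. The file headers state no unit, so it was read from the values. Per the submitters' processing notes, HISAT2, HTSeq, R 3.2.0 and hg19 were used, with no roles given, and the sources used here give neither annotation nor filters. Whole reads were recovered from the deposited FPKM within 0.02 read for 100% of genes. For 4 members the reads shared a factor, which was removed with the RefSeq span. Reads of near-identical histone genes may be shared or lost by counting.

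Groups were compared with limma 3.58.1 (R 4.3.3) on log2(FPKM + 1), fitting the 4 group means to all 8 libraries, with a mean trend and Benjamini-Hochberg adjustment over the 9805 genes that reached 1 FPKM in 2 or more libraries. The tests are two-sided, a call is an adjusted p below 0.05, and this scale understates changes of low genes. The plan for read counts named another test, which was not used because the values are FPKM. The fit was tested on simulated data. Floors in reads cover counting error only, while the SE, SD and p-values cover the spread among these libraries.

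Alternatives were another pseudocount, no filter, RLE scaling, voom, the compared libraries alone, a replicate block and leaving out each library. The members and lists were chosen with earlier results of these data known. Named with values were the tested members, the 2 highest of each class, called members, 6 preset genes, and the 2 widest calls in FDX1-OE cells in each of the lists of variants, 3′ end factors and chaperones. Outside this rule, values are also given for FDX1, H2AZ1 and H4C13, and for CDKN1A, CDKN1B, RB1 and CCNA2 of the S phase list. Sequences come from RefSeq (GRCh38.p14) and GENCODE v29, not from hg19.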

Additional observations from a re-analysis of the deposited data

Results flagged for a closer look

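The ES response differed between FDX1-OE and control cells, by the interaction term of limma, for 4 members, each of which was lost by voom on recovered reads. H2AC6, H2BC4 and H3C10 passed the filter only with an FDX1-OE ES library, so the filter favours their calls. H3C10 had a difference of 1.24 on the log2 scale (adjusted p = 0.00914, limma). H2BC11 had a difference of 1.08 (adjusted p = 0.0398, limma). H2AC6 had a difference of 0.89 (adjusted p = 0.0399, limma). H2BC4 had a difference of 0.58 (adjusted p = 0.0408, limma).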

How the results depend on the processing

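No result reversed under the alternatives run. Numbers of members called higher moved by over 1.5 times as follows, in control ES (4), FDX1-OE against control in ES (6) and the interaction (4). Without the filter they were 1 (H2BC4, and none of the 4), 3 (2 of the 6, with H2BC21) and 1 (H2BC4), and H4C2 was called lower in control ES. With the compared libraries alone, control ES gave 3, a smaller move. Of these H2BC12 is 1 of the 4, and H1-2 and H2BC11 were new. H2AC8, H2AC17 and H3C8 did not pass the filter in those libraries. With log2(FPKM + 0.1) the interaction had 2, and with voom on recovered reads, with either filter, 0. Leaving out single libraries gave 0 to 3 in control ES (0 to 1 lower, H2BC8 without control DMSO replicate 2), 6 to 10 in FDX1-OE ES, 2 to 5 for FDX1-OE against control in ES and 0 to 4 in the interaction. With 1 library left in a group, that library is assumed to vary like the others. In the comparison of cells in DMSO every alternative gave 0. Same-numbered libraries had correlations of deviations between -0.18 and 0.18, so the numbers do not pair them, and with the replicate block 5, 10, 0, 6 and 4 members were called higher over the 5 comparisons. For the interaction, the fit to the compared libraries alone is the fit to all 8. The log2 ratio of the summed level was 0.47 in control ES, 1.40 in FDX1-OE ES and 0.72 for FDX1-OE against control in ES. With RLE scaling these were 0.38, 1.25 and 0.67. As recovered reads per library total control ES gave 0.57 and FDX1-OE against control in ES 0.78, and without H2BC12 control ES gave 0.37. The median log2 change over all genes in FDX1-OE ES went from 0.09 to -0.03 with RLE scaling. For single members and class sums, 832 values under alternatives kept their side, 71 fell short of the threshold, 15 newly passed it and 55 values not called changed sign or moved by more than the spread between replicates. Of the 272 values of the 34 members under the filter, 125 rest on fewer than 3 reads, while H1-4, H1-5 and H2BC21 among them had means of at least 10 reads.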
